A study of Mus musculus with 4 samples.

Results

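The Cd209 genes of the mouse are a small family of C-type lectin genes that lie together on chromosome 8, and this account describes where the repressive histone mark H3K9me3 was found over and around them. The 7 members, Cd209a to Cd209g, were taken by name out of 21887 protein-coding genes. They were chosen by their peak coverage in the same 2 lists, among which Cd209b stood out, so their values are a description. In both cultures the mark lay mostly in the stretches between the lectin genes and hardly in the genes themselves. Less of it lay in the 100 kb on either side than in the cluster. Peaks covered 13.6% of the cluster in cells treated to delete Setdb1 and 12.1% in control cells. Within the cluster, Cd209a and Cd209b had less peak coverage in the Setdb1-deleted culture, while the other members differed by under 10 percentage points.

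The mark was mapped by chromatin immunoprecipitation without crosslinking, followed by sequencing, in primary muscle stem cells in culture, the cells that rebuild muscle fibres after injury, which had been purified with magnetic beads. All cells carried loxP-flanked Setdb1 on both chromosomes (labelled Setdb1lox/lox) and a tamoxifen-inducible Cre recombinase driven by Pax7, a gene of muscle stem cells. The Setdb1-deleted culture received 4-hydroxytamoxifen and the control culture received ethanol, each for 72 h. The study asked where H3K9me3 was found with and without the enzyme, and each condition had 1 H3K9me3 library, which leaves every difference given here without replicates and without a p-value. The labels write the Cre name with a suffix that runs from 2 to 5 over the 4 libraries (Pax7GakaCreERT2 for the control H3K9me3 library), and the age, sex and number of donor animals are not given in the labels.

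SETDB1 is an enzyme that places methyl groups on lysine 9 of histone H3. The trimethylated form, H3K9me3, marks compacted and silent chromatin and is common over repeats and over clusters of related genes that a cell type does not use. Cd209a is the mouse gene named after human DC-SIGN (CD209), a receptor on dendritic cells that binds sugars on microbes through its calcium-dependent lectin domain. Cd209b, also called SIGNR1, encodes a receptor of marginal-zone macrophages in the spleen that takes up bacterial polysaccharides, and Cd209d, also called SIGNR3, encodes a receptor that binds mycobacteria. Cd209c, Cd209e, Cd209f and Cd209g carry the alternative names SIGNR2, SIGNR4, SIGNR8 and SIGNR7. Muscle stem cells are not known as a site where these receptors work.

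The members did not form an even row. In the RefSeq gene table for GRCm38.p6, the assembly released as mm10, they spanned chr8:3743395-4137707, a stretch of 394.3 kb of which the genes themselves took up 49.0 kb. Cd209a lay at chr8:3743395-3748984, followed after 99.0 kb by Cd209e (chr8:3847973-3854286), Cd209d (chr8:3871824-3878548), Cd209b (chr8:3917655-3926841) and Cd209c (chr8:3940081-3954746). Cd209f (chr8:4102784-4105838) followed only after another 148.0 kb, and Cd209g (chr8:4134246-4137707) closed the row. The member list came with a shorter position, roughly that of Cd209e to Cd209b, and the positions of the gene table were used in its place. The first 6 genes are read from the minus strand and Cd209g from the plus strand. The gene table gave no exons, so a peak inside a gene could not be placed in an exon or an intron.

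Start sites were those of the RefSeq promoter table. For Cd209c (chr8:3946863), Cd209d, Cd209f and Cd209g (chr8:4134736) they lie inside the gene as the gene table places it, so the bases before them need not lie outside the gene. Among the 250 bases before each member's start site, a peak touched those of Cd209e alone. A control peak at chr8:3854383-3854647 reached 154 of the 250 bases before the start site of Cd209e, while no peak of the Setdb1-deleted list touched them. The 250 bases (RefSeq, GRCm38.p6, chr8:3854287-3854536, minus strand) are shown so that the covered part can be seen, with the covered bases in capitals.
Cd209e: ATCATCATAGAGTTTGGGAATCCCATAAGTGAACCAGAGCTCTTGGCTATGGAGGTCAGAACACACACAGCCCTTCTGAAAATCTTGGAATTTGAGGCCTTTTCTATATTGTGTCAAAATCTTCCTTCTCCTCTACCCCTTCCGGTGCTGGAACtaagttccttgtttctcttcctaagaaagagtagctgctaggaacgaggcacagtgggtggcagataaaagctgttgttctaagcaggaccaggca
Over all 32851 start sites of the RefSeq promoter table, 1.13% had a peak base in these 250 bases in the control list and none in the Setdb1-deleted list, and 1.25% had the reverse. The control peak at Cd209e was narrow, at 265 bp, with a fold enrichment of 2.39 (the authors' value, a linear ratio within their own list) and a −log10 q of 1.46.

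Sequences before the start sites of the family were mostly unlike each other, except for Cd209f and Cd209g. The 250 bases before those 2 start sites shared an unbroken identical run of 154 bases and were 78.1% identical in a global alignment, while the other 20 pairs of members shared runs of at most 12 bases and were 44.0% to 58.0% identical. Both are shown with the shared run in capitals, because reads from identical sequence cannot be assigned to 1 of the copies by sequence alone (Cd209f at chr8:4105765-4106014, minus strand; Cd209g at chr8:4134486-4134735, plus strand).
Cd209f: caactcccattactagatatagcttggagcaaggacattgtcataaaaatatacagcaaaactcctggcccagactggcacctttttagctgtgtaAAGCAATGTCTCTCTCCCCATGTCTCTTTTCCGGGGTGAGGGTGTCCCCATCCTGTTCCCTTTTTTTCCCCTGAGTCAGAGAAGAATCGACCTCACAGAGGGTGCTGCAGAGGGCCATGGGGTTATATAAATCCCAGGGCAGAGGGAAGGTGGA
Cd209g: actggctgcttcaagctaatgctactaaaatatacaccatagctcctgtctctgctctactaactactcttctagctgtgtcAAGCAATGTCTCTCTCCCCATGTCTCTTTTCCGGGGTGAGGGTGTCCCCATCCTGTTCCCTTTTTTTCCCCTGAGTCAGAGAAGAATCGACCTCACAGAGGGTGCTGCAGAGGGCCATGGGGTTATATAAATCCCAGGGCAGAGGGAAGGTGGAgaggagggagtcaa
By the positions of the gene table, the Cd209g stretch lies wholly inside the gene and the Cd209f stretch partly. Neither of these 2 stretches carried a peak base in either list. How the authors treated reads that match several places was not given in the sources used here, and the effect of shared sequence on the peaks was not tested.

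A short run also recurred near the start sites of Cd209a, Cd209d and Cd209e. The letters TTTCTCTTCCTA were the longest run held by at least 3 members in the 300 bases around each start site (250 before and 50 after). Searched on both strands, they were found in 3 of the 7 members and in 0.0274% of all promoters in the table, which is 9 promoters with these 3 included. The run was picked because at least 3 members hold it, so nothing is read from the 2 shares. The 30 bases around the run are given for comparison, with the run in capitals (Cd209a chr8:3748974-3749003, Cd209d chr8:3878550-3878579, Cd209e chr8:3854352-3854381, all on the minus strand).
Cd209a: cacttctcaaTTTCTCTTCCTAagtaagat
Cd209d: cagttcctttTTTCTCTTCCTAtcagaatg
Cd209e: aagttccttgTTTCTCTTCCTAagaaagag
It began 9 bases before the annotated start site in Cd209a, 70 bases before it in Cd209d and 85 bases before it in Cd209e, where it lay just outside the part covered by the control peak. The letters TTCCGG, which contain the GGAA core that ETS-family factors bind when read on the opposite strand, were found in Cd209a, Cd209b, Cd209e, Cd209f and Cd209g, thus in 5 of 7 members, and in 14.9% of all promoters. The 2 searched runs did not overlap in these sequences. A match describes the letters only.

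Cd209b differed most between the cultures. Its gene window, the gene with 5 kb on both sides, was covered at 1.70% by peaks of the Setdb1-deleted list and at 26.5% by control peaks, a difference of -24.8 percentage points (deleted minus control). In the Setdb1-deleted list a single peak of 326 bp lay in the gene, at chr8:3922565-3922890. The control list had 4 peaks in the window, at chr8:3915116-3917882, chr8:3920800-3921315, chr8:3927385-3928302 and chr8:3929460-3930346, with fold enrichments of 2.61, 2.53, 2.51 and 2.64. None of the 4 overlapped a peak of the other list. The widest of them, 2767 bp, covered the 3′ end of the gene, and the third lay upstream of the start site. From the start site to the nearest peak there were 3.95 kb in Setdb1-deleted cells and 0.544 kb in control cells.

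Cd209a, the first gene of the row, showed the same direction with no peak at all in the Setdb1-deleted list. Its window was covered at 0% in Setdb1-deleted cells and at 16.9% in control cells, a difference of -16.9 points. The control peaks lay on either side of the gene, at chr8:3742576-3743714, which reached 320 bases into the 3′ end, and at chr8:3750873-3752360, which had a −log10 q of 1.95. The nearest peak to the start site was 19.4 kb away in Setdb1-deleted cells and 1.89 kb away in control cells.

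**Figure D1:**
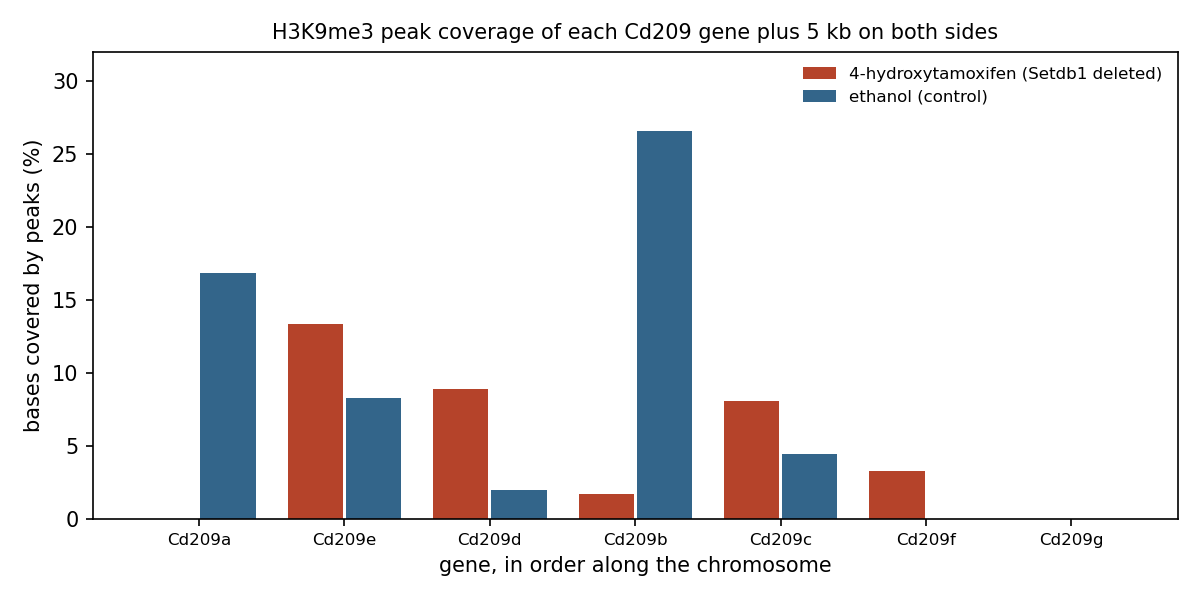
Percent of each gene window (the gene with 5 kb on both sides) covered by H3K9me3 peaks, 1 library per condition; red bars are Setdb1-deleted cells and blue bars control cells, with genes in their order on chromosome 8. Cd209a and Cd209b are the members with taller control bars; Cd209e, Cd209d, Cd209c and Cd209f have taller bars in Setdb1-deleted cells, and Cd209g has none.

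Cd209e, Cd209d, Cd209c and Cd209f were covered more in the Setdb1-deleted culture, each by under 10 points. The Cd209e window stood at 13.3% in Setdb1-deleted cells and 8.27% in control cells, and it held overlapping peaks at or just beyond the 3′ end of the gene, chr8:3846202-3847974 in Setdb1-deleted cells and chr8:3846978-3847297 in control cells. Inside the gene itself the order was the other way, with 2 bases covered in Setdb1-deleted cells and 431 in control cells. The Cd209d window was covered at 8.86% in Setdb1-deleted cells by a peak at chr8:3869394-3870875, against 1.97% in control cells by a peak of 330 bp in the same intergenic stretch. The gene Cd209d had no peak base in either list. The Cd209c window was covered at 8.03% and 4.45% in Setdb1-deleted and control cells, and a peak of 260 bp inside the gene, at chr8:3944986-3945245, was present in the Setdb1-deleted list alone.

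The far pair, Cd209f and Cd209g, carried almost none of the mark near the genes. The Cd209f window was covered at 3.27% in Setdb1-deleted cells and 0% in control cells, and the Cd209g window at 0% in both. Cd209g was thus the 1 member of 7 with no peak base in either list, against 64.6% of all protein-coding genes. Peaks lay just beyond: with 10 kb in place of 5 kb on both sides, Cd209f was covered at 22.6% in Setdb1-deleted cells and 8.69% in control cells, a difference of 13.9 points, and Cd209g at 12.5% and 6.33%. The peak just outside the Cd209f window, chr8:4110905-4111895, lay 5.07 kb from the gene and had the highest fold of the Setdb1-deleted list in the region, at 3.13. It had no partner in the control list.

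Of the 7 members, 2 were covered at least 10 points less in the Setdb1-deleted list, against 2.52% of all protein-coding genes, and none at least 10 points more, against 2.38%. The members were chosen with these differences known, so nothing is read from that count. Only a gene with at least 10% control coverage can lose 10 points; among the 1836 such genes 30.0% did so, and Cd209a and Cd209b were the members that met that condition. The median difference over the 7 members was 3.27 points and over all protein-coding genes 0 points. The mean leaned the other way: mean coverage of the members was 5.03% in Setdb1-deleted cells and 8.3% in control cells. Over all protein-coding genes the means were 2.888% and 2.892%. With chromosomes 6, 14, X and Y left out, 2.34% of 18688 genes were covered at least 10 points less.

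The peaks behind the differences at Cd209a and Cd209b were of modest confidence. With peaks limited to a −log10 q of at least 2 in the authors' lists, both windows were at 0% in both cultures, and the differences were 0 points. The same held for Cd209c, Cd209d, Cd209f and Cd209g, while the Cd209e window kept 2.48% in Setdb1-deleted cells and 0% in control cells. Taken as the gene alone, the differences were -5.72 points for Cd209a and -4.55 points for Cd209b, with Cd209b covered at 3.55% in Setdb1-deleted cells and 8.10% in control cells. Joining peaks within 5 kb made the Cd209b difference -53.8 points, and Cd209e then stood at 13.3% in Setdb1-deleted cells and 94.5% in control cells. The Cd209d window then stood at 8.86% in Setdb1-deleted cells and 14.2% in control cells, so that the direction turned for both of these genes.

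Most of the mark in the cluster lay between the lectin genes. The 7 genes were covered at 1.20% in Setdb1-deleted cells and 3.05% in control cells, whereas the 345.3 kb between them were covered at 15.3% and 13.4%. Over the whole of chromosome 8, protein-coding genes were covered at 3.28% in Setdb1-deleted cells and 3.10% in control cells, and the rest of the chromosome at 7.56% and 7.34%. The intervals of the cluster thus carried more of the mark than the average non-genic stretch of the chromosome in both libraries. Of the peaks over the cluster, 3 of 46 touched a member gene in the Setdb1-deleted list and 4 of 48 in the control list. The Setdb1-deleted peak at Cd209e reached only 2 bases of the gene. The member genes take up just 49.0 kb of the 394.3 kb. The whole-list share of peaks touching genes was not counted, so nothing is read from these counts.

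The densest stretch in both lists was the interval from Cd209d to Cd209b. It was covered at 25.9% in Setdb1-deleted cells and 26.8% in control cells, with 7 peaks in each list. It held the longest overlap of the region outside the flanks, 2541 bases shared by the peaks at chr8:3887451-3891460 in Setdb1-deleted cells and chr8:3888920-3892211 in control cells. The neighbouring interval from Cd209e to Cd209d was covered at 22.2% and 23.2% in Setdb1-deleted and control cells. From Cd209b to Cd209c, where the peaks upstream of Cd209b lie, coverage was 13.0% in Setdb1-deleted cells and 23.4% in control cells.

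The longer and outer intervals leaned the other way. Between Cd209a and Cd209e coverage was 16.4% in Setdb1-deleted cells and 13.0% in control cells, between Cd209c and Cd209f 11.5% and 9.72%, and between Cd209f and Cd209g 13.8% and 5.23%. The longest stretch without a peak inside the cluster lay between Cd209c and Cd209f in both lists. It was 31.2 kb in Setdb1-deleted cells, from chr8:3990018 to chr8:4021179, and 56.6 kb in control cells, from chr8:3972414 to chr8:4028966. At the near end of the control stretch, the Setdb1-deleted list held 4 peaks from chr8:3973918 to chr8:3990017, none of which had a partner, and the 10 kb bin with the largest excess in Setdb1-deleted cells lay there, at 26.6% and 0%.

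**Figure D2:**
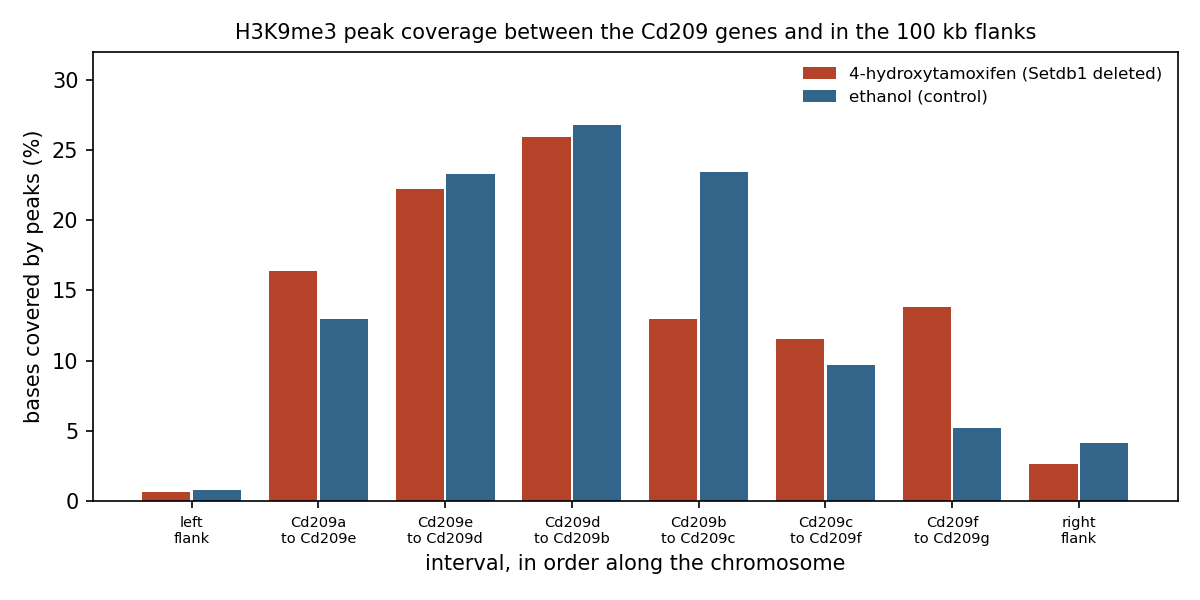
Percent covered by H3K9me3 peaks in the intervals between neighbouring Cd209 genes and in the 100 kb on either side of the cluster, 1 library per condition; red bars are Setdb1-deleted cells and blue bars control cells. Every interval is covered at 5.23% or more in both, the flanks at 4.15% or less, and the bars differ most between Cd209b and Cd209c and between Cd209f and Cd209g.

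Other annotated transcripts sit between the lectin genes, and most had no peak. Rprl3, an RNase P RNA gene at chr8:3803125-3803359, was covered at 100% in both cultures. The pseudogene Gm7397 was covered at 12.3% in Setdb1-deleted cells and 0% in control cells, and the lncRNA gene Gm39122 at 0% and 13.5%. The pseudogenes Gm7381, Gm7389, Gm7407 and Gm16589 had no peak base in either list.

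Less of the mark lay beyond the edges of the cluster than inside it. The 100 kb before Cd209a were covered at 0.630% in Setdb1-deleted cells and 0.819% in control cells, and the 100 kb after Cd209g at 2.68% and 4.15%, with 1 peak in each flank and list. In the first flank the control bases belonged to the peak that runs into Cd209a, and the next control peak before it lay 193 kb away. The Setdb1-deleted list began further inside the cluster, at chr8:3768430. The next peak before that one lay 53.4 kb away in the flank, at chr8:3714369-3714998. In the second flank both lists had a peak at the same place, chr8:4151040-4153717 in Setdb1-deleted cells and chr8:4150855-4155004 in control cells, after which no peak followed for 228 kb and 197 kb. Of the 10 neighbouring protein-coding genes in the flanks, Stxbp2, Retn, Mcemp1, Fcor, Trappc5, Fcer2a, Evi5l, Prr36 and Lrrc8e carried no peak base within 5 kb in Setdb1-deleted or control cells. Fcer2a encodes the low-affinity IgE receptor, a C-type lectin, and Retn encodes the secreted protein resistin. Clec4g, the lectin gene next to Cd209a, was covered at 2.67% in Setdb1-deleted cells and 0% in control cells.

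**Figure D3:**
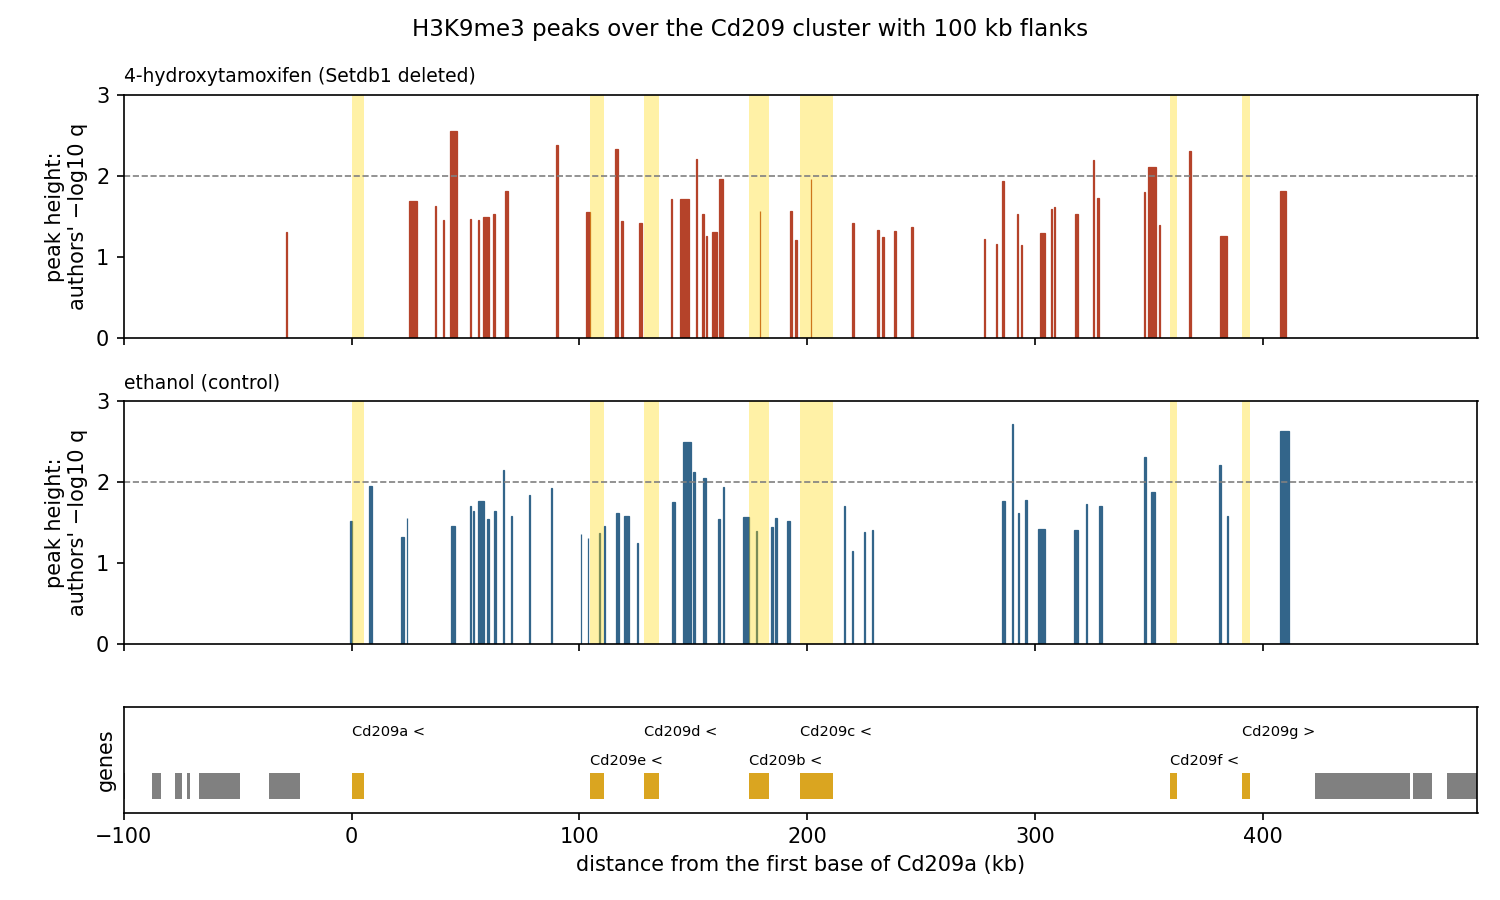
H3K9me3 peaks over the Cd209 cluster with 100 kb on both sides, in Setdb1-deleted cells (top) and control cells (middle), with member genes in gold and neighbouring protein-coding genes in grey (bottom); each bar spans a peak and its height is the authors' −log10 q, with a dashed line at 2. The horizontal axis is the distance in kb from the first base of Cd209a, and most bars stand between the gold genes, with 1 in each flank and list.

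Over the cluster with its flanks there were 48 peaks in the Setdb1-deleted list and 49 in the control list. They covered 56.9 kb and 52.8 kb. Of the Setdb1-deleted peaks, 28 (58.3%, exact binomial interval 43.2% to 72.4%) overlapped no control peak, and of the control peaks, 28 (57.1%, 42.2% to 71.2%) overlapped no peak of the Setdb1-deleted list, where an overlap of 1 bp counted. The intervals cover counting error only and are at the 95% level. They treat the peaks as independent, though these are neighbours in 1 region with 1 library per condition and not replicates. Most unpartnered peaks had a neighbour close by: with a peak within 5 kb counted as a partner, 14.6% and 8.16% remained without one. Over the whole lists, 49.9% of Setdb1-deleted peaks and 47.0% of control peaks overlapped no peak of the other list, and 17.9% and 15.5% had none within 5 kb. The share without an overlap in the region was thus above that of the whole list in both. The region was chosen from these lists, so the intervals are no test of that difference and nothing is read from it. Peak coverage was higher in the cluster than in the median stretch of its size, and the part of that in the share within 5 kb was not tested. In bases, the lists shared 17.3 kb of the cluster, which was 32.4% of the Setdb1-deleted coverage and 36.3% of the control coverage, against 37.2% and 37.4% over all main chromosomes.

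Peaks of the cluster were ordinary members of their lists in height. The median fold enrichment over the cluster with flanks was 2.67 in the Setdb1-deleted list and 2.63 in the control list, where the whole lists had medians of 2.59 and 2.57, each to be read within its own list. The median width was 869.5 bp and 827 bp, against 854 bp and 904 bp over the whole lists. A −log10 q of 2 or more was reached by 7 peaks of the Setdb1-deleted list and 8 of the control list, and of 3 or more by none. Over the whole lists, 11.5% of Setdb1-deleted peaks and 18.8% of control peaks reached 2. The whole-list share at 3 or more is not given here, so nothing is read from the lack of such peaks. None of the 7 and 8 peaks touched a member gene. The highest of the Setdb1-deleted list, chr8:3786594-3789705 between Cd209a and Cd209e, had a −log10 q of 2.56 and overlapped a control peak. The highest of the control list, chr8:4033502-4033866 between Cd209c and Cd209f, had a −log10 q of 2.72 and no partner. Of the 7 and 8, 3 and 5 overlapped some peak of the other list, and none overlapped a peak that also reached 2. Over the whole lists, 66.8% of such peaks in Setdb1-deleted cells and 67.1% in control cells overlapped some peak of the other list, and 27.5% and 18.1% overlapped one that also reached 2, so that with 7 and 8 peaks nothing is read from these counts.

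As a whole the cluster did not stand out from stretches of its size in the difference between the lists. It was covered at 13.6% in Setdb1-deleted cells and 12.1% in control cells, a difference of 1.45 points, where the middle 90% of 6893 consecutive segments of 394.3 kb over the main chromosomes ran from -3.09 to 3.90 points. Of these segments 13.0% had an excess in Setdb1-deleted cells at least as large. Coverage at least as high as that of the cluster was found in 12.6% of segments in the Setdb1-deleted list and in 13.7% in the control list, and the median segment had 1.58% and 1.51%. The sign of the cluster's difference depended on the processing and on the stretch taken: with peaks within 5 kb joined it was -4.65 points, with 27.3% in Setdb1-deleted cells and 31.9% in control cells. From Cd209e to Cd209b alone, genes included, coverage was 18.2% in Setdb1-deleted cells and 19.9% in control cells, a difference of -1.71 points. The depth of neither library is known, and unequal depth cannot be told apart from unequal marking.

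**Figure D4:**
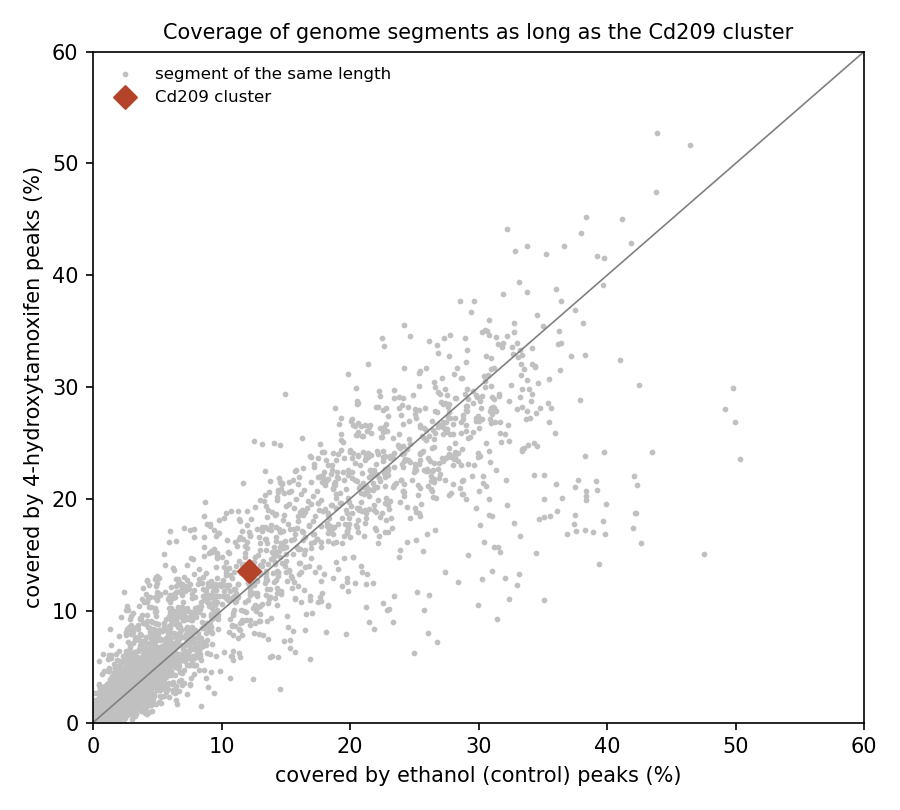
Percent covered by H3K9me3 peaks in Setdb1-deleted cells (vertical axis) against control cells (horizontal axis) for 6893 segments of 394.3 kb (grey points) and for the Cd209 cluster (red diamond); the line marks equal coverage. The cluster lies close to the line, at 13.6% and 12.1%.

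Genes elsewhere with window percents near those of Cd209b were looked up, so their likeness to it follows from the choice. Over both libraries the protein-coding genes with the pair of window percents closest to that of Cd209b, by Euclidean distance over the 2 values and leaving out predicted genes, were Vmn1r234 (0% in Setdb1-deleted cells and 26.6% in control cells), Olfr934 (0% and 27.0%), Pate7 (1.77% and 24.0%), Olfr1499 (2.30% and 29.0%) and Olfr914 (0% and 24.6%). They lie on chromosomes 9, 17 and 19 and include 1 pheromone receptor gene and 3 odorant receptor genes. The share of such receptor genes among all protein-coding genes was not counted, so nothing is read from these families.

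Lectin relatives of the Cd209 genes differed between the lists mainly on chromosome 6. Of 48 other C-type lectin genes, 7 were covered at least 10 points less in the Setdb1-deleted list and none at least 10 points more, against 2.52% and 2.38% of all protein-coding genes. All 7 are among the 24 relatives on chromosome 6, where 9.95% of 1126 protein-coding genes were covered at least 10 points less and 0.266% at least 10 points more. The whole chromosome was covered at 5.17% in Setdb1-deleted cells and 10.2% in control cells, and the part of that chromosome-wide difference in the 7 was not tested. The 6 of the largest difference were Reg3g (2.54% and 39.6%), Clec4d (17.5% and 50.7%), Clec4e (24.5% and 54.4%), Clec4a2 (15.7% and 31.6%), Clec4b2 (19.04% and 33.6%) and Reg3a (19.6% and 32.5%). Clec4a2, Clec4b2, Clec4d and Clec4e lie close together, as do Reg3a and Reg3g, so the 7 genes are not 7 separate places. The windows of Clec4d and Clec4e overlap. Clec4d and Clec4e encode receptors for microbial glycolipids, and Reg3g and Reg3a encode secreted antimicrobial lectins of the gut. On the other chromosomes 24 relatives differed by -6.78 to 4.19 points, with 5 covered less and 5 more. Chromosome 8, which holds the Cd209 genes, was covered at 5.86% in Setdb1-deleted cells and 5.65% in control cells.

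Signalling partners and ligands of CD209-type lectins had little of the mark. Of 21 genes, among them Syk and Card9, which relay signals of lectin receptors, 17 had windows free of peaks in both cultures, against 64.6% of all protein-coding genes, and none differed by 10 points. Among markers of muscle stem cells, 9 of 10 genes, Pax7 and Myod1 included, had no peak in either list, against the same 64.6%. Calcr stood at 0% in Setdb1-deleted cells and 1.48% in control cells. It lies on chromosome 6, which as a whole was covered at 5.17% and 10.2%. Of the endothelial markers 3 of 4 had no peak, and of the fibroadipogenic markers 3 of 4. With so few genes nothing is read from these shares. Among 12 markers of dendritic cells, macrophages and other blood cells 7 had no peak, a share near the 64.6% of all genes, and Adgre1, which encodes a macrophage surface antigen, was covered at 19.9% and 20.1%. H3K9me3 peaks measure no expression, so the presence of immune cells in the cultures could not be checked with them. Setdb1 itself was covered at 0% in Setdb1-deleted cells and 0.888% in control cells, and peaks cannot show whether its deletion took place.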

How the data were processed

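Per the submitters' processing notes, BWA 0.7.17-r1188, MACS2, ChIPseeker 1.30.3 and mm10 were used; how MACS2 was set, whether inputs entered the peak calls and whether libraries were pooled is not stated there. The deposited files are 2 lists of broad peaks, with 113503 peaks in the Setdb1-deleted list and 105709 in the control list on chromosomes 1 to 19, X and Y. The authors' values for a peak are its fold enrichment (a linear ratio), −log10 p-value and −log10 q-value; the deposited score was set aside. Lists were assigned by condition and mark, since the peak names give another replicate number than the sample labels. The input libraries were not analysed here. Read depth is unknown.

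Coverage is the percent of bases in a region under any peak, computed with Python 3.11.15, numpy 2.4.6 and pandas 2.3.3 and tested on simulated data. Binomial intervals came from scipy 1.17.1, promoter alignments from Biopython 1.88 and figures from matplotlib 3.10.9. Gene positions came from RefSeq GRCm38.p6, and all 7 members matched the gene and promoter tables. Chromosomes were measured to their last gene or peak. The members, gene lists and named genes (members, protein-coding neighbours within 100 kb, up to 6 genes per list past 10 points, and the 5 genes nearest to the member with the largest difference) were chosen with earlier results of these data known.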

Additional observations from a re-analysis of the deposited data

How the results depend on the processing

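Alternatives changed the peak threshold, list size, joining of peaks, windows, flanks and the overlap rule; of 90 alternative values for 15 results, 40 stayed within 1.5 times the reported value. At −log10 q of 2 or more the cluster difference was 0.786 points and that with flanks turned to -0.177 points. The shares without a partner that also reached 2 were then 100% in both lists, with 7 and 8 peaks. Over the whole lists, 27.5% of such Setdb1-deleted peaks and 18.1% of such control peaks had one, so nothing is read from these shares. At this threshold 284 genes were covered at least 10 points less and 162 at least 10 points more, with 289 segments past the cluster's difference. At 3 or more no peak was left, the differences in coverage and peak number were 0, the shares had no value, and 52 genes were covered at least 10 points less and 41 at least 10 points more. With peaks within 5 kb joined, the cluster difference turned to -4.65 points and that with flanks to -3.36 points. The list of Setdb1-deleted cells then had 4 more peaks, and the shares were 37.5% (Setdb1-deleted) and 30.0% (control). Whole-list shares for joined peaks are not given here, so nothing is read from these shares. After joining, 953 genes were covered at least 10 points more. At the same number of peaks the Setdb1-deleted list had 2 fewer (-2). With a partner allowed within 5 kb the shares were 14.6% and 8.16%, against 17.9% and 15.5% over the whole lists. The cause was not tested, except that a higher threshold keeps fewer peaks and joining lengthens them. Segments were not counted where the cluster's difference was 0 or changed sign. No library could be left out, and no paired analysis was possible because no group had more than 1 library.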
